A study of Arabidopsis thaliana with 10 samples.

Results

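The libraries labelled pif134, a triple mutant of the phytochrome-interacting factors PIF1, PIF3 and PIF4, were compared with wild-type (WT) libraries of Arabidopsis thaliana. Membership was taken from the labels alone and gave 3 libraries labelled pif134 and 3 WT libraries out of 30 in the series. RNA 3′ ends were sequenced from whole dark-grown seedlings of 10 genotypes, each in biological triplicate (A, B and C). Besides pif134 and WT, the quadruple mutant pifq (pif1 pif3 pif4 pif5) and the triple mutant pif345 (pif3 pif4 pif5) were used for direct comparisons, and the single mutants and the other triple mutants only for levels. All groups shared the Columbia background and one growth regime: seeds were given white light for 3 h, a far-red pulse of 15 min, and then 48 h of darkness at 21 °C. Seedlings were thus 2 days old, and 20 µg of total RNA went into each library. The labels do not name the mutant alleles, and the technical duplicate runs they mention cannot be told apart in the 1 column given per replicate.

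Phytochrome-interacting factors (PIFs) are basic helix-loop-helix (bHLH) transcription factors that accumulate in darkness and keep a seedling etiolated, with an elongating hypocotyl, closed cotyledons and undeveloped chloroplasts. Light-activated phytochromes bind them and trigger their degradation, which releases the photosynthetic programme. PIFs bind the G-box (CACGTG) and the related PBE-box (CACATG, or CATGTG on the other strand). PIF1, also called PIL5, is best known for holding back seed germination and chlorophyll synthesis in the dark, and PIF3, PIF4 and PIF5 for seedling elongation and hook and cotyledon development.

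The PIF1 level went against the label. PIF1 (AT2G20180, chr2:8704024-8707009, coordinates here and throughout from the RefSeq annotation of TAIR10.1) stood at 58.1, 56.7 and 74.5 CPM (read counts scaled to a common library size) in pif134 libraries A, B and C, 2.79, 2.88 and 5.69 CPM in pifq, 22.5, 23.8 and 38.5 CPM in pif345, and 22.6, 20.7 and 31.8 CPM in WT. Every library labelled pif134 was above every WT library and far above every pifq library, and in the pif1 single mutant PIF1 ranged from 1.05 to 2.34 CPM. The log2 difference of PIF1 from WT was 1.33 ± 0.57 (± standard error, SE) with adjusted p = 0.111 by edgeR's quasi-likelihood test, and from pifq it was 4.06 ± 0.64 with adjusted p = 0.000383. When the replicate letter was added to the model, as a block, the difference from WT was 1.36 with adjusted p = 0.0328. PIF1 RNA was therefore not low in these libraries. In the other triple mutants whose label includes pif1 its mean was 5.71 CPM in pif135 (2.28 to 12.4) and 7.66 CPM in pif145 (3.04 to 14.9). In the pif5 single mutant, whose label keeps PIF1, it ranged from 16.4 to 72.1 CPM. Every direction drawn below from the name pif134 rests on a label that the PIF1 counts go against.

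PIF3 (AT1G09530, chr1:3075768-3079654) was low, as in the other pif3 genotypes, with 4.76, 5.85 and 5.86 CPM in the pif134 libraries, a mean of 1.93 CPM in pifq, 3.88 CPM in pif345, and 69.8, 82.7 and 69.0 CPM in WT. Its log2 difference from WT was -3.75 ± 0.33 (adjusted p = 1.21e-08), and the groups did not overlap. PIF4 (AT2G43010, chr2:17886101-17889087) had 212, 149 and 79.0 CPM in pif134 against 13.6, 11.7 and 10.02 CPM in WT, a log2 difference of 3.64 ± 0.36 (adjusted p = 8.24e-08). Since the pif4 single mutant itself averaged 18.7 CPM, above WT, the 3′ reads of PIF4 do not check the label. PIF5 (AT3G59060, chr3:21827905-21830837), which the label leaves intact, had 16.0, 24.9 and 17.43 CPM in pif134, 0.443, 0.519 and 0.434 CPM in pifq and 7.39, 7.02 and 6.96 CPM in WT. PIF5 rose by 1.45 ± 0.41 on the log2 scale against WT (adjusted p = 0.0137), but not when pif134 B or WT C was left out. Against pifq the log2 difference of PIF5 was 5.37 ± 0.52 (adjusted p = 2.27e-07).

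**Figure D1:**
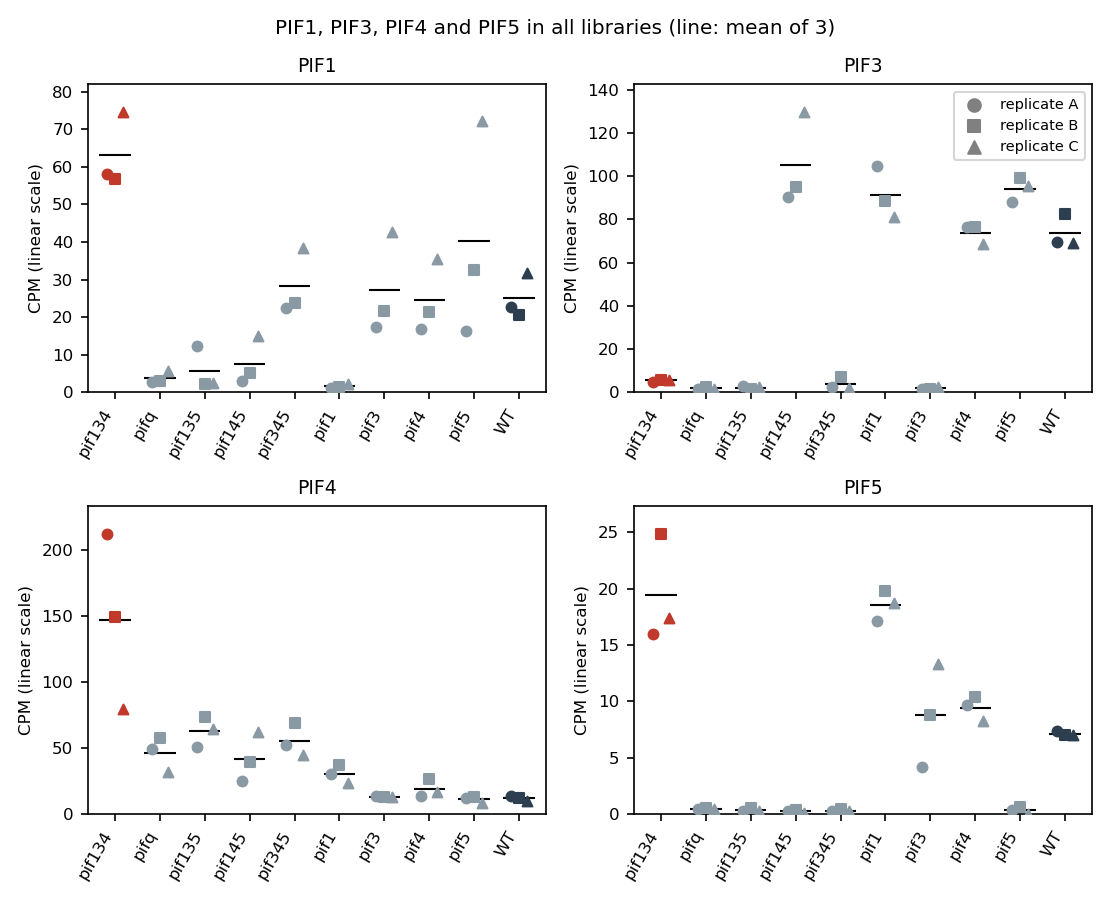
Level of PIF1, PIF3, PIF4 and PIF5 in CPM (linear axes) in every library of the 10 genotypes, with circles, squares and triangles for replicates A, B and C and a line at the mean of 3. In the pif134 column PIF1 averages 63.1 CPM, above the WT mean of 25.0 CPM, while PIF3 lies near the other pif3 genotypes.

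Depth was 22391365, 22713137 and 18971915 counts in the pif134 libraries and 28753418, 43973898 and 30607581 counts in WT, and the highest of the series was 70809112, so library C of pif134 was the shallowest of all. TMM scaling factors were 0.779, 0.918 and 0.998 in pif134 and 0.847, 1.06 and 0.995 in WT, and library A of pif134 had the lowest factor and the largest share of counts in its 10 most abundant loci (12.3%). Replicates differed beyond sampling noise: the chi-square statistic divided by its degrees of freedom was 79.8 to 147 between pif134 libraries and 59.3 to 147 between WT libraries. The whole seedling was extracted, so fewer cells of a type and less RNA per cell cannot be told apart in any value below. Of 10 common reference genes 2 rose and none fell, with a median log2 difference of -0.04, and both risen genes, GAPC2 (0.84) and UBQ10 (0.64), lost the call in at least 4 of the 6 fits that left out 1 library. Under the block 1 reference gene fell.

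Against WT, 3159 of 18680 tested genes (16.9%) passed an adjusted p of 0.05 in the libraries labelled pif134, of which 1704 (9.12%) were higher and 1455 (7.79%) lower. At least 2-fold changes numbered 1366 higher and 1063 lower. All 3 pif134 libraries lay above all 3 WT libraries for 2749 genes (14.7%) and below them for 2777 (14.9%), and the median log2 difference of all tested genes was -0.02. These percentages are the background for every list count below. The lists were chosen with earlier results of these data known, so a share beyond this background is not independent support. Without pif134 B the number of calls was 2008, and the letter block gave 4708. Letter blocks fitted separately in 2 sets (WT with the single mutants, the triple mutants with pifq) gave 6069. The sets were defined by genotype, and pif134 and WT lie in different sets. Any difference between the sets therefore cannot be told apart from genotype in this comparison. When total counts replaced TMM the split became 1368 higher and 1980 lower, with a median of -0.13.

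**Figure D2:**
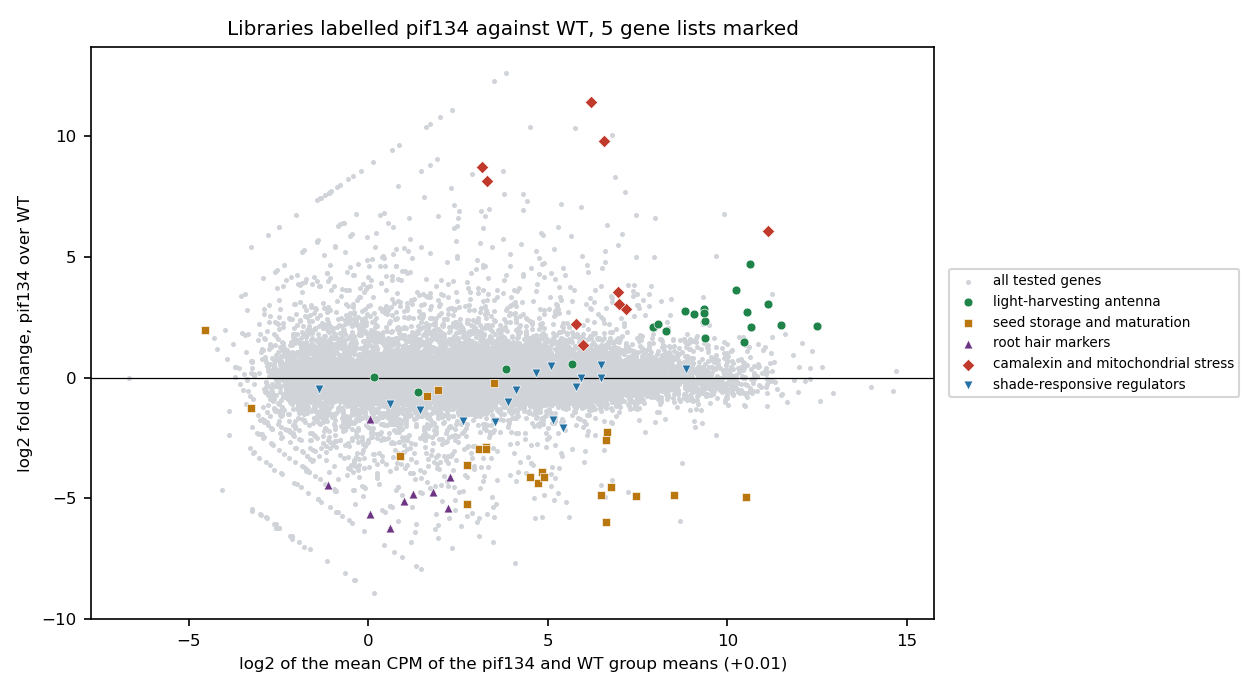
Log2 difference of pif134 from WT (vertical axis) against log2 mean CPM (horizontal axis) for all 18680 tested genes, with 5 gene lists marked. The antenna list lies above 0 apart from 1 member below it and 1 close to it, the camalexin list lies far above 0, and the seed and root hair lists lie mostly far below it.

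Some genes that PIFs are known to activate in the shade response fell. Of 12 PIF relatives and atypical bHLH genes, all tested, 3 fell and 1 rose (median log2 difference -0.23), and of 16 shade-responsive regulators 6 fell and none rose (median -0.48). The 3 fallen relatives, PIL1, HFR1 and PIL2, are also among the 6 fallen shade genes. PIL1 (AT2G46970, chr2:19295431-19297858), a PIF-like protein induced by shade, was at 13.6, 11.6 and 23.8 CPM in pif134 and at 45.9, 63.2 and 54.5 CPM in WT. Its log2 difference was -1.74 ± 0.26 (adjusted p = 1.79e-05), with no overlap between the groups. HFR1 (AT1G02340, chr1:465616-467880), an atypical bHLH protein that binds PIFs and blocks their contact with DNA, had 23.3, 9.02 and 16.6 CPM in pif134 and 91.6, 56.6 and 58.7 CPM in WT. Its log2 difference was -2.08 ± 0.30 (adjusted p = 1.03e-05), and the highest pif134 library was below the lowest WT library.

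Among the remaining shade genes the direction was the same for PIL2, also called PIF6 (log2 difference -1.81), the auxin-response repressor IAA29 (-1.85, range -2.48 to -1.38 when single libraries were left out) and the homeodomain factor HB-2 (-1.03). The cytokinin oxidase gene CKX5 (-1.34) lost its call without pif134 A, pif134 B, WT B or WT C. XTH15, an enzyme that remodels wall xyloglucan, had 350.0, 665 and 548 CPM in pif134 and 298, 456 and 455 CPM in WT, and its difference of 0.37 ± 0.32 did not pass the test (adjusted p = 0.468). PIF7 was the relative that rose, from very few reads: 1.03, 0.72 and 0.739 CPM in pif134 against 0.164, 0.171 and 0 CPM in WT, a log2 difference of 2.79 ± 0.58 (adjusted p = 0.000865; 2.26 to 3.40 when single libraries were left out). The groups overlapped in the summed level of the shade list, at 855 to 1072 CPM in pif134 and 899.9 to 984 CPM in WT. XTH15 alone, which was not called, made up a large part of this sum in both groups.

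**Figure D3:**
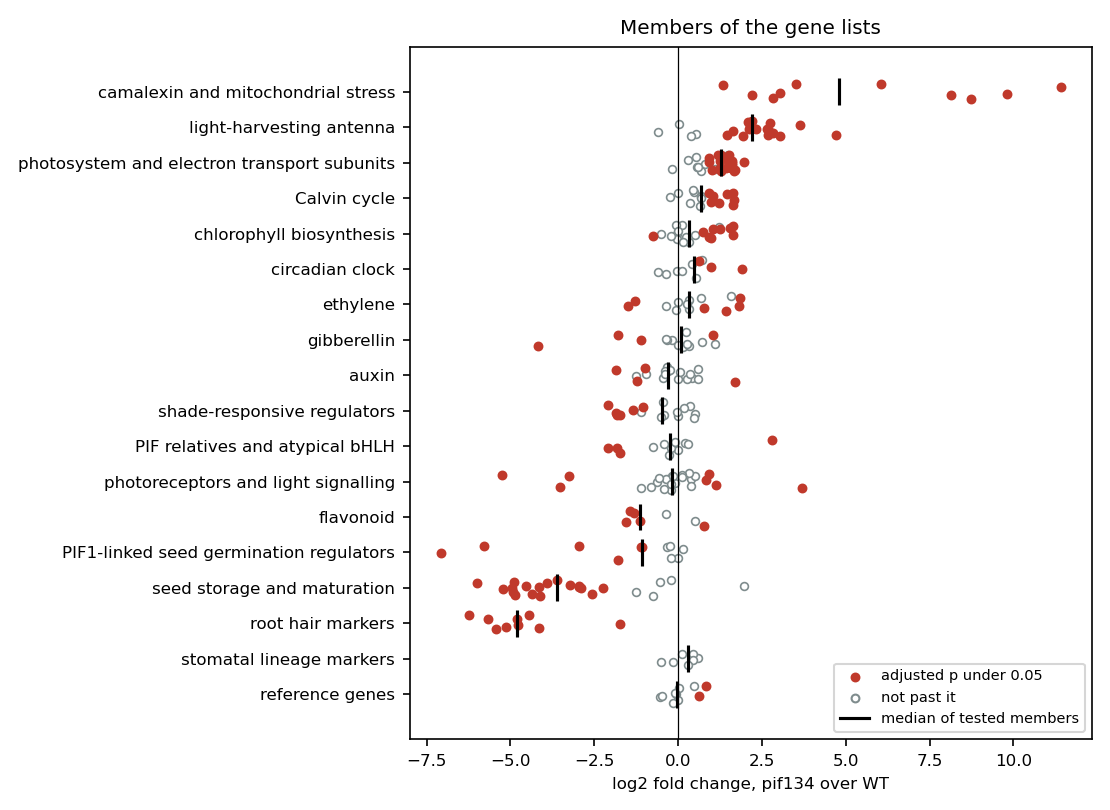
Log2 difference of pif134 from WT for the members of 18 gene lists, with filled points for members that passed an adjusted p of 0.05 and a bar at the list median. The camalexin and antenna lists have their medians at 4.79 and 2.19, and the seed and root hair lists at -3.62 and -4.81.

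Light-harvesting genes were high in the dark. Antenna proteins bind the chlorophyll that feeds both photosystems, and 17 of the 21 antenna genes, all tested, rose while none fell (median log2 difference 2.19). Their summed level was 36375, 35759.9 and 42292 CPM in pif134 libraries A, B and C, 57433, 83986 and 71457 CPM in pifq, 28967, 27726 and 21870.5 CPM in pif345 and 8199.7, 6083 and 7311 CPM in WT. No pif134 library came near the WT range, and all were between the pif345 and pifq ranges. The pif1 single mutant had 25034, 21982 and 41787 CPM, overlapping pif134. The triple mutants pif145 (55776, 40937 and 77527 CPM) and pif135 (61659, 55010 and 71334 CPM) were mostly higher than pif134. LHCB1.4 had 1819, 2893 and 4423 CPM in pif134 and 91.4, 112 and 145 CPM in WT, which is the largest log2 difference of the list at 4.71 ± 0.52 (adjusted p = 3.94e-07). LHCB1.1 followed with 1771, 2372 and 2501 CPM in pif134 and 142, 121 and 273 CPM in WT (3.63 ± 0.45, adjusted p = 1.98e-06), and LHCB1.5 with 3517, 3634 and 4871 CPM in pif134 and 499.7, 358 and 592 CPM in WT (3.05 ± 0.41, adjusted p = 5.78e-06). LHCB1 genes are near-identical copies, so the split of reads among them is uncertain, while LHCB2.2 (2.83), LHCA1 (2.70), LHCB3 (2.69) and LHCB6 (1.63) rose as well. The 4 members that did not pass were LHCB4.3, LHCB7, LHCA5 and LHCA6, with log2 differences of -0.58, 0.021, 0.37 and 0.54.

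The 250 bases upstream of the 3 most raised antenna genes are shown because these genes moved together; they lie on TAIR10.1 at chr2:14524357-14524606 (plus strand), chr1:10475970-10476219 (minus strand) and chr2:14523569-14523818 (minus strand), and are written 5′ to 3′ on the gene's strand. LHCB1.4 (AT2G34430, chr2:14524607-14525918) and LHCB1.5 (AT2G34420, chr2:14522524-14523568) are neighbours on opposite strands. CACGTG (a palindrome) and CACATG or CATGTG were searched on both strands; a match would be in capitals, and these windows held none.
LHCB1.4: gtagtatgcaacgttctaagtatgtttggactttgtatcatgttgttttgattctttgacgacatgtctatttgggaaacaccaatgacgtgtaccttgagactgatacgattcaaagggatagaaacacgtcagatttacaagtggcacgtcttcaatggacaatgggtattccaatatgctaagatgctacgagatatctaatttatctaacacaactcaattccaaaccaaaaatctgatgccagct
LHCB1.1: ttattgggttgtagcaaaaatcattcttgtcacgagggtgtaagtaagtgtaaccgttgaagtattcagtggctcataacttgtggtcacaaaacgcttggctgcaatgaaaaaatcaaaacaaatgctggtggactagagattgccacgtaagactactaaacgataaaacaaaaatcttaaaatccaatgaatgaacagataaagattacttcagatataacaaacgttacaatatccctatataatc
LHCB1.5: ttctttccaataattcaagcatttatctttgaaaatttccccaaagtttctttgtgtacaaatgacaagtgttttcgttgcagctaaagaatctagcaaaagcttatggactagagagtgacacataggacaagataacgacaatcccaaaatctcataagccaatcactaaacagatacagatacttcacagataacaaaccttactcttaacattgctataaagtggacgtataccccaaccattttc
Of the 17 raised antenna genes 4 held CACGTG and 3 held CACATG or CATGTG. Among all 18545 windows of the same length the shares were 7.63% for CACGTG and 11.3% for CACATG or CATGTG.

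Photosystem and electron transport subunits, which form the complexes that the antenna feeds, rose in 22 of 31 tested genes and fell in none (median 1.27). Their sum was 42289, 35190.4 and 44082 CPM in pif134 and 19244, 17242 and 17803 CPM in WT, without overlap. PSBW, a small subunit of photosystem II, had 285, 599 and 545 CPM in pif134 and 86.1, 139.5 and 137 CPM in WT (1.98 ± 0.39, adjusted p = 0.000479). PSAE1 (1.71) and PSAN (1.60) of photosystem I and PSBR (1.67) of photosystem II rose as well. Those of the 22 that lost the call when a single library was left out were PETE2 and PSBP1 (5 ways each), PETE1 (3 ways), PSAD2 (2 ways, 0.78 at the lowest) and PSAL (2 ways), as well as FD2, PSBQ1 and PSBTN (1 way each). PSBS, which dissipates excess light energy, did not pass the test, with 293, 343 and 350.1 CPM in pif134 and 435, 288 and 402 CPM in WT.

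Calvin cycle genes rose in 8 of 17 tested and fell in none (median 0.70), a count of 4 without pif134 B and 5 without WT B. The aldolase gene FBA1 had 117, 136 and 176 CPM in pif134 and 40.4, 46.9 and 51.0 CPM in WT (1.63 ± 0.27, adjusted p = 7.9e-05), with all pif134 libraries higher. RBCS1A, a Rubisco small subunit gene with close copies, differed by 1.66 but lost the call without pif134 B or WT B, whereas RBCS3B (0.44) and RBCS2B (-0.23) did not pass.

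In chlorophyll synthesis 8 of 21 tested genes rose and 1 fell (median 0.33), and 5 rose without pif134 C, WT A or WT B. HEMA1, the glutamyl-tRNA reductase that opens the pathway, had 319.8, 337 and 426 CPM in pif134 and 125, 104 and 120.2 CPM in WT (1.63 ± 0.27, adjusted p = 7.43e-05). CHLP, the geranylgeranyl reductase that makes the phytol tail (1.63), CHLM, a methyltransferase of the magnesium branch (1.55), and GUN5, the H subunit of magnesium chelatase (1.24), also rose without overlap. PORA, the protochlorophyllide oxidoreductase most typical of etiolated tissue, had 595, 843 and 854 CPM in pif134 and 1331, 1075 and 1419 CPM in WT. Its log2 difference of -0.74 ± 0.26 passed narrowly (adjusted p = 0.0482) and failed without WT A, WT C or any of the pif134 libraries. PORB (0.004) and PORC (-0.023) did not pass.

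**Figure D4:**
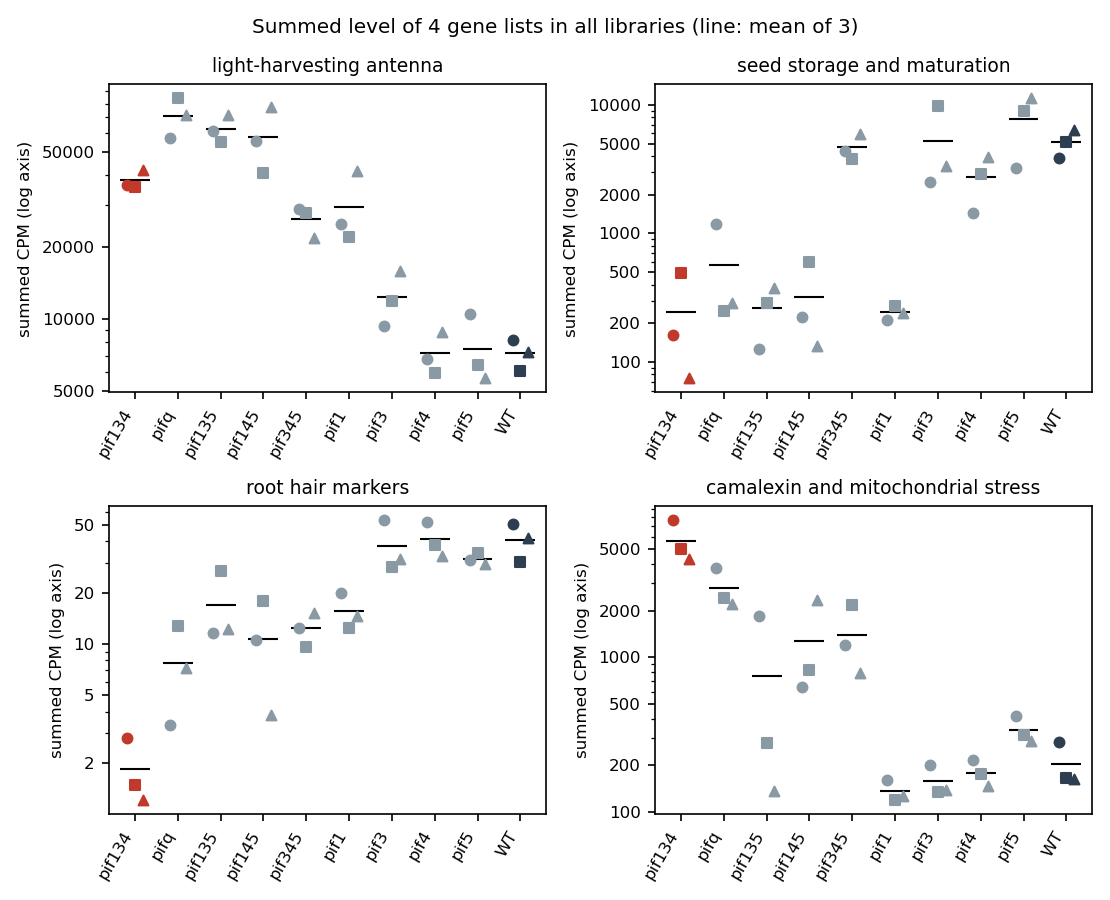
Summed CPM (log axis) of the antenna, seed, root hair and camalexin lists in every library of the 10 genotypes, with circles, squares and triangles for replicates A, B and C. The pif134 libraries lie at 35759.9 to 42292 CPM for antenna genes and at 74.7 to 496 CPM for seed genes, against 6083 to 8200 CPM and 3858 to 6376 CPM in WT.

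Light-signalling genes gave a mixed picture, with 4 of 25 tested genes higher and 3 lower (median -0.18). The early light-induced proteins ELIP1 and ELIP2 bind chlorophyll and protect the developing plastid, and both fell. ELIP1 (AT3G22840, chr3:8084405-8085669) had 0.516, 0.72 and 0.528 CPM in pif134, 0.0885, 0.142 and 0.193 CPM in pifq, 13.2, 13.4 and 10.03 CPM in pif345 and 19.8, 22.7 and 25.7 CPM in WT. Against WT its log2 difference was -5.25 ± 0.33 (adjusted p = 5.39e-11), and the pif134 and pifq libraries were the low ones. ELIP2 had 5.39, 6.53 and 12.1 CPM in pif134 and 59.4, 70.7 and 99.3 CPM in WT (-3.25 ± 0.35, adjusted p = 2.08e-07), and the B-box gene BBX23 had 0.287, 0.72 and 0.898 CPM in pif134 and 3.24, 9.52 and 9.36 CPM in WT (-3.52 ± 0.55, adjusted p = 3.38e-05). In both the groups were separate.

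The B-box gene BBX16 rose from few reads, with 0.803, 1.92 and 2.01 CPM in pif134 and 0, 0.0856 and 0.263 CPM in WT (3.69 ± 0.69, adjusted p = 0.000305; 3.25 to 4.75 when single libraries were left out). GLK2, which activates photosynthesis genes, rose by 1.12 ± 0.28 on the log2 scale (adjusted p = 0.00504), with 13.8, 14.9 and 12.7 CPM in pif134 and 6.53, 7.02 and 5.45 CPM in WT. Its relative GLK1 (0.84) and the COP1 partner SPA1 (0.92) both lost their calls without pif134 B, pif134 C, WT A or WT C, which left 2 risen genes in each of these fits; under the block 5 light-signalling genes fell in place of 3. The photoreceptor genes PHYA (0.32), PHYB (-0.092), CRY1 (0.39) and CRY2 (0.37) and the regulators HY5 (-0.22), HYH (-0.18) and COP1 (-0.22) did not pass.

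Seed storage and maturation genes were low. These encode storage globulins and albumins, oil-body proteins and late-embryogenesis proteins, which a germinating seed normally shuts off. Of 24 genes 23 were tested, of which 18 fell and none rose (median -3.62); FUS3, a seed maturation regulator, was untested, at 0 in all pif134 libraries. The list summed to 163, 496 and 74.7 CPM in pif134 libraries A, B and C, 1173, 251 and 289.9 CPM in pifq, 4344, 3770.3 and 5962 CPM in pif345 and 3858, 5120.2 and 6376 CPM in WT. Every pif134 library was thus below every WT and pif345 library, and library B was the highest of the 3. The pif1 single mutant, whose PIF1 was low, summed to 214, 275 and 242 CPM, within the range of the pif134 libraries. The triple mutants pif135 (125, 287 and 379 CPM) and pif145 (224, 604 and 133 CPM) were also low.

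CRA1, a cruciferin storage globulin, shows the spread within the pif134 label: it had 25.2, 244 and 8.93 CPM in pif134 and 1835, 3048 and 3695 CPM in WT. The log2 difference was -4.95 ± 1.07 (adjusted p = 0.00133), but -7.38 to -4.41 when single libraries were left out, the largest fall coming without the high library B. SESA5, a seed storage albumin with close copies, had 0.631, 7.25 and 1.21 CPM in pif134 and 135, 159 and 291 CPM in WT (-5.99 ± 1.00, adjusted p = 7.67e-05; -7.71 to -5.49 with single libraries left out). The caleosin CLO1 (-5.22, range -6.26 to -4.65) and the oleosin OLEO2 (-4.88) of oil bodies, and the cruciferin CRC (-4.91, range -6.47 to -4.42), fell too. ABI3, the seed maturation regulator, had 1.26, 3.74 and 1.48 CPM in pif134 and 16.4, 14.02 and 20.8 CPM in WT (-2.96 ± 0.40, adjusted p = 5.8e-06; -3.63 to -2.67 with single libraries left out). ABI5, a regulator of the arrest after germination, did not pass, with 5.97, 16.2 and 8.87 CPM in pif134 and 7.47, 13.9 and 14.9 CPM in WT.

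Heat-shock transcripts were also highest in library B: the 8 genes summed to 57.6, 239.8 and 27.9 CPM in pif134 and 59.3, 55.7 and 61.3 CPM in WT. Whether this had a part in the seed gene values of library B was not tested. HSP21 and HSP18.2 were the 2 heat-shock genes that rose (log2 differences 5.13 and 2.51), and neither passed without pif134 B; HSP21 also failed without WT A or WT C.

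Windows of 250 bases upstream are shown for the 3 of the 12 largest falls that hold a G-box: SESA5 (chr5:22239188-22239437), AT5G35660, a glycine-rich protein (chr5:13853743-13853992), and AT3G05260, an NAD(P)-binding protein (chr3:1499097-1499346). All are on the minus strand of TAIR10.1 and are written 5′ to 3′ on the gene's strand, with CACGTG and CACATG in capitals.
SESA5: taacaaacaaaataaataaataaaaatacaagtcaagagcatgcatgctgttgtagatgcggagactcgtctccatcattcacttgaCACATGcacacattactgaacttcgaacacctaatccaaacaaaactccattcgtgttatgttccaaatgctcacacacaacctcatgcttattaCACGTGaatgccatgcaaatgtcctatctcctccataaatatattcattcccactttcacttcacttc
AT5G35660: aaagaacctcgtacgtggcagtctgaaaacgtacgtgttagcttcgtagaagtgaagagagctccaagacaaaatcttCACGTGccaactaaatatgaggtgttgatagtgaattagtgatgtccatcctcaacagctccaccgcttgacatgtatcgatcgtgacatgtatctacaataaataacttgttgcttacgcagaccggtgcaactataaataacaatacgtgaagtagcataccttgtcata
AT3G05260: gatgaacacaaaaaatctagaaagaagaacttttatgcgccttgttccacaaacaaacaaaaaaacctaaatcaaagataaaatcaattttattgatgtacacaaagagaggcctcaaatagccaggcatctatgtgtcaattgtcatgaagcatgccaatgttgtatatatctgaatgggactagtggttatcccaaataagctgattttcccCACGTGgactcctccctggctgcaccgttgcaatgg
AT5G35660 had 6.83, 27.0 and 5.65 CPM in pif134 and 489.9, 789.8 and 1141 CPM in WT, and AT3G05260 had 0.746, 1.44 and 0.37 CPM in pif134 and 40.4, 49.7 and 56.1 CPM in WT. Over all genes that fell, 10.08% of 1449 windows held CACGTG and 14.7% held CACATG or CATGTG; over all that rose, 6.90% and 10.3% of 1696 did. CACGTG was searched in 18 fallen genes, the 12 largest falls with the fallen PIF relatives and shade genes, and 3 windows (16.7%) held it. These were the 3 shown, so no fallen PIF relative or shade gene held CACGTG in its window. A match describes the letters of the window and nothing about binding.

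Regulators of germination linked to PIF1 fell in 6 of 11 tested genes of 12, and none rose (median -1.08). GASA2 and GASA3 encode small cysteine-rich proteins regulated by gibberellin and were almost absent. GASA2 had 0.0574, 0.096 and 0.0528 CPM in pif134 and 8.66, 8.07 and 13.4 CPM in WT (-7.08 ± 0.80, adjusted p = 4.78e-07), and GASA3 had 0.172, 0.576 and 0.423 CPM in pif134 and 16.7, 22.2 and 27.5 CPM in WT (-5.78 ± 0.59, adjusted p = 1.24e-07). RGL2, the DELLA repressor most tied to germination, had 10.8, 22.7 and 5.44 CPM in pif134 and 54.8, 39.2 and 40.2 CPM in WT (-1.78 ± 0.45, adjusted p = 0.00581; -2.46 to -1.41 with single libraries left out). SOM, a zinc-finger repressor of germination and a known PIF1 target, passed at -1.08 ± 0.35 (adjusted p = 0.0327) but not without pif134 A, pif134 C, WT A or WT C. The DELLA genes RGA (-0.32) and GAI (0.15) did not pass.

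Gibberellin genes rose in 1 and fell in 3 of 14 tested of 17 (median 0.08). GA20OX3, a biosynthetic oxidase, had 0.459, 0.096 and 0.317 CPM in pif134 and 4.06, 5.01 and 6.54 CPM in WT (-4.18 ± 0.65, adjusted p = 3.27e-05), with separate groups. GA3OX1, which makes active gibberellin, fell as well (-1.11 ± 0.26, adjusted p = 0.0026). The receptor gene GID1B (1.04) rose but lost the call without pif134 A, WT B or WT C, and 2 genes rose without pif134 C or WT A and under the block. Genes that mobilise seed oil rose in 1 and fell in 1 of 9 tested of 10 (median 0.24): the lipase SDP1 (0.74) lost its call without pif134 B (0.45), and MFP2 (-0.64) lost its call without pif134 B or C or any WT library. ICL, the isocitrate lyase of the glyoxylate cycle, did not pass (0.29 ± 0.54, adjusted p = 0.766).

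Root hair markers were low in the libraries labelled pif134. All 9 were tested and all 9 fell (median -4.81), and their sum was 2.81, 1.49 and 1.21 CPM in pif134, 3.36, 12.7 and 7.23 CPM in pifq, 12.4, 9.57 and 15.2 CPM in pif345, 20.0, 12.4 and 14.6 CPM in pif1 and 50.9, 30.1 and 41.7 CPM in WT. Even the highest pif134 sum was below the lowest of the other 4 genotypes given here. EXPA7, a wall-loosening expansin of hair cells, had 0.287, 0.24 and 0.106 CPM in pif134 and 10.8, 7.13 and 9.56 CPM in WT (-5.41 ± 0.45, adjusted p = 5.06e-09). The bHLH factor RSL4, which drives hair growth, had 1.205, 0.24 and 0.158 CPM in pif134 and 15.3, 6.21 and 6.11 CPM in WT (-4.13 ± 0.67, adjusted p = 5.07e-05; -5.45 to -3.56 with single libraries left out), and RHD6, which acts above it, fell too (-1.73 ± 0.41, adjusted p = 0.00373). Proline-rich PRP3 and PRP1 were left with 2 and 2 reads over the 3 pif134 libraries, and their count ratios of pif134 to WT were 0.0116 (95% interval 0.0014 to 0.0424) and 0.0176 (95% interval 0.00211 to 0.0643), which cover counting error only.

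Markers of other cell types gave no calls by edgeR's quasi-likelihood test. Root tip markers passed in none of 4 tested genes of 5 (SCR -0.08, SHR 0.016) and summed to 36.2 to 45.1 CPM in pif134 and 38.9 to 45.3 CPM in WT. Stomatal lineage markers passed in none of 7 tested of 9, with sums of 26.7 to 40.6 CPM in pif134 and 26.7 to 31.7 CPM in WT; SPCH and EPF1 were at 0 in all pif134 libraries. Of the floral organ genes, AP1 and AG were at 0 in pif134 and WT, and PI, the only one tested, did not pass. In these 3 lists no gene had an unadjusted p under 0.05 and DESeq2 called none, which does not show that the cell types were equal.

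Camalexin synthesis and mitochondrial stress genes were raised in all 10 members tested, none of which fell (median 4.79). Camalexin is the indole phytoalexin of Arabidopsis, and the alternative oxidases of this list mark mitochondrial stress. The list summed to 7693, 5021 and 4279.5 CPM in pif134 libraries A, B and C, 3790.2, 2412 and 2217 CPM in pifq, 1193, 2162 and 795 CPM in pif345, 161, 119.8 and 127 CPM in pif1 and 283, 166 and 164 CPM in WT. All pif134 libraries were above all libraries of those genotypes. The other triple mutants had 644, 822 and 2354 CPM (pif145) and 1852, 279 and 138 CPM (pif135). Most of the sum in pif134 came from GSTF6, a glutathione transferase gene described below. AOX1D (AT1G32350, chr1:11666886-11668690), an alternative oxidase, had 202, 101 and 143 CPM in pif134 and 0.0821, 0.0428 and 0.0328 CPM in WT, where 5 reads were counted in all (11.42 ± 1.46, adjusted p = 2.56e-06). AOX1A, its more widely expressed relative, had 349, 147 and 182 CPM in pif134 and 38.1, 22.9 and 21.0 CPM in WT (3.05 ± 0.51, adjusted p = 7.66e-05).

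Along the camalexin pathway, CYP79B2 (3.53) and CYP79B3 (2.84) convert tryptophan to indole-3-acetaldoxime. CYP71A12 (AT2G30750, chr2:13099486-13101371) and CYP71A13 (AT2G30770, chr2:13109909-13111988), near-identical neighbours between which reads may be split wrongly, act next. CYP71A12 had 252, 174 and 146 CPM in pif134 and 0.287, 0.214 and 0.131 CPM in WT (9.81 ± 1.13, adjusted p = 7.08e-07), and CYP71A13 rose by 8.14 (7.65 to 12.06 with single libraries left out). PAD3, the last enzyme, had 12.8, 31.2 and 9.88 CPM in pif134 and 0, 0.0856 and 0 CPM in WT (8.72 ± 1.38, adjusted p = 4.25e-05; 8.06 to 11.93 with single libraries left out). GSTF6, a glutathione transferase of the pathway, had 5873, 4038 and 3281 CPM in pif134 and 92.4, 55.2 and 50.4 CPM in WT (6.06 ± 0.79, adjusted p = 3.21e-06). WRKY33, the regulator of these genes, rose by 1.35 ± 0.38 (adjusted p = 0.0131), a call lost without pif134 B, WT B or WT C.

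Wound, touch and jasmonate genes rose in 2 and fell in 1 of 11 tested of 12 (median -0.04). ZAT12, a zinc-finger gene of many stresses, had 88.2, 75.2 and 40.4 CPM in pif134 and 17.04, 6.81 and 8.48 CPM in WT (2.66 ± 0.43, adjusted p = 5.07e-05). The storage protein gene VSP1, a jasmonate marker, fell (-3.46 ± 0.57, adjusted p = 6.77e-05). The count that rose was 4 without WT A, and JAZ5 (1.83) lost its call in 5 of the 6 fits that left out 1 library.

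The 12 largest rises were taken from called genes other than the 4 targeted PIFs whose groups did not overlap and whose mean over both groups reached 5 CPM. They were led by genes with no reads in WT. AT3G03670, a peroxidase, had 25.1, 46.5 and 14.1 CPM in pif134 and 0 reads in WT, which is at least 990-fold higher when WT is set at a floor of 3 counts over the group. CYP82C2, a cytochrome P450 of indole metabolism, had 7.34, 28.9 and 31.8 CPM in pif134 and 0 reads in WT, at least 789-fold higher. CYP71B22, another P450, had 54.6, 58.5 and 23.9 CPM in pif134 and 3 reads in WT, a ratio of 1552 (95% interval 531 to 7531); the floors and this interval cover counting error only. Next to AOX1D, CYP71A12, CYP71A13 and PAD3, the rest were the dirigent gene DIR5 (10.34), the berberine-bridge-type oxidase AT1G26390 (10.05), the caffeoyl-CoA methyltransferase gene CCOAMT (8.31) and the uncharacterised AT4G12735 (8.54, range 8.03 to 9.34) and AT2G38823 (8.42, range 8.05 to 9.34). Each of the 12 kept an adjusted p under 0.05 in all 6 fits that left out 1 library. The same libraries had selected these genes, so this is not an independent check.

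The 12 largest falls by the same rule were led by AGP30 (AT2G33790, chr2:14293561-14295353), an arabinogalactan protein of the wall. It had 0.115, 0.192 and 0.158 CPM in pif134, 0.885, 3.303 and 4.49 CPM in pifq, 3.52, 2.197 and 3.06 CPM in pif345 and 42.3, 26.9 and 31.5 CPM in WT (-7.70 ± 0.68 against WT, adjusted p = 1.21e-08). MOP10, also called PRPL1, had 2.52, 1.39 and 1.32 CPM in pif134 and 108, 80.3 and 96.9 CPM in WT (-5.77 ± 0.44, adjusted p = 1.78e-09). By the rule of selection, both were lower in every pif134 library than in any WT library. Beside GASA2, GASA3, SESA5, AT5G35660 and AT3G05260 the others included MLP31 (-6.82), the CAP-family gene AT5G57625 (-6.55, range -7.31 to -5.98) and the uncharacterised AT5G24313 (-6.17, range -7.17 to -5.76). The remaining falls were AT5G04960, of the pectin methylesterase inhibitor superfamily by product name (-5.99, range -6.92 to -5.41), and NSP2, a nitrile specifier of glucosinolate breakdown (-5.80, range -6.61 to -5.32). The ranges for AT5G35660 and AT3G05260 were -7.01 to -5.57 and -6.45 to -5.46.

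Among the hormone lists, auxin genes rose in 1 and fell in 3 of 19 tested of 23 (median -0.31), and under the block or without pif134 A 5 fell. IAA19, a repressor of auxin response, had 34.0, 23.6 and 20.6 CPM in pif134 and 64.2, 58.8 and 57.8 CPM in WT (-1.21 ± 0.28, adjusted p = 0.00291). GH3.3, which conjugates auxin to amino acids, had 508, 55.5 and 53.0 CPM in pif134 and 83.2, 55.9 and 49.8 CPM in WT, so its call of 1.71 rests on library A: without it the log2 difference was -0.19, and the call was also lost without WT B or WT C. Ethylene genes rose in 4 and fell in 2 of 14 tested of 17 (median 0.33). Without WT B only 1 rose, and without pif134 B or WT C 2 rose; none fell without pif134 B, pif134 C, WT A or WT C. ACS2, an ethylene synthesis gene, kept its rise in all 6 fits (13.8, 10.6 and 11.4 CPM in pif134, 4.56, 2.44 and 2.89 CPM in WT, 1.86 ± 0.42, adjusted p = 0.00191).

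Brassinosteroid genes rose in 1 and fell in 2 of 10 tested (median -0.49), and cell wall growth genes fell in 1 of 12 tested and rose in none (median -0.30). None of these calls held in every fit that left out 1 library: CPD failed without pif134 A, WT B or WT C, ROT3 without pif134 B, pif134 C or WT A, BR6OX1 in all 6, and CESA6 in 5. Of 10 clock genes 3 rose and none fell (median 0.48). CCA1, a morning-phased clock repressor, had 51.3, 55.8 and 46.6 CPM in pif134 and 28.0, 24.5 and 24.6 CPM in WT (1.00 ± 0.23, adjusted p = 0.00311), while PRR5 (1.92) failed without pif134 B (1.11) and LHY (0.64) failed without pif134 A, pif134 C or WT C.

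Flavonoid genes fell in 4 and rose in 1 of 7 tested of 10 (median -1.14). Their sum was 28.6 to 44.5 CPM in pif134 and 64.6 to 72.6 CPM in WT, without overlap. CHS, the chalcone synthase that opens the pathway, had 15.0, 10.7 and 17.43 CPM in pif134 and 42.6, 37.5 and 37.2 CPM in WT (-1.44 ± 0.49, adjusted p = 0.0427). The count that fell was 2 without pif134 A, 0 without pif134 B and 1 without any one WT library, and CHS itself lost its call in all 6 fits. MYB111 (-1.54), a flavonol regulator, failed only without pif134 B.

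Against pifq, which shares mutations in pif1, pif3 and pif4 with pif134 by label, fewer genes passed. In all, 252 of 18680 genes (1.35%) passed, 93 higher (0.498%) and 159 lower (0.851%), with a median of 0.00. All pif134 libraries were above all pifq libraries for 957 genes (5.12%) and below them for 949 (5.08%). Shares of about this size also arise when 3 libraries are set against 3 in random order. The block gave 423 calls and the block within sets 626, while leaving out pif134 A gave 155, pifq B 131 and pifq C 134. Since PIF1 differs between the 2 groups, this comparison is not one of PIF5 alone. All 4 targeted PIF genes were higher in pif134; PIF3 (log2 difference 1.51) lost that call without pifq A or C, and PIF4 (1.66) without pif134 A or pifq C.

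Of 16 shade genes 6 were higher in pif134 than in pifq and none lower (median 0.45). PIL1 had 13.6, 11.6 and 23.8 CPM in pif134 and 1.28, 0.802 and 1.35 CPM in pifq, a log2 difference of 3.83 ± 0.30 (adjusted p = 2.65e-09). XTH15 had 350.0, 665 and 548 CPM in pif134 and 92.6, 80.4 and 52.6 CPM in pifq (2.79 ± 0.34, adjusted p = 1.03e-05), and HFR1 had 23.3, 9.02 and 16.6 CPM in pif134 and 5.05, 4.81 and 4.73 CPM in pifq (1.74 ± 0.30, adjusted p = 0.0011). For each of these genes every pif134 library was above every pifq library. The sulfotransferase gene ST2A (1.90) failed without pifq C, while PIL2 (1.75) and HB-2 (0.94) failed in several fits without 1 library. PIF7 was lower in pif134 (-2.27, adjusted p = 0.00556), a call lost without pifq C.

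No antenna, photosystem, Calvin cycle or chlorophyll gene passed edgeR's quasi-likelihood test between pif134 and pifq, with list medians of -0.88, -0.55, -0.23 and -0.26. With an unadjusted p under 0.05, 13 of 21 antenna genes and 8 of 31 photosystem genes were lower, no Calvin cycle gene differed, and 2 chlorophyll genes were higher. Under the letter block 9 antenna genes were lower at an adjusted p under 0.05, and DESeq2 called 3 antenna genes lower and 1 chlorophyll gene higher. The summed antenna level was lower in every pif134 library than in every pifq library. Seed genes had 1 higher and 1 lower (median -0.71): the oleosin OLEO3 was higher (42.3, 33.5 and 28.0 CPM in pif134, 11.7, 12.3 and 8.97 CPM in pifq, 1.65 ± 0.23, adjusted p = 9.96e-05), and ABI3 was lower (-1.86), though not without pif134 A or pif134 C. Of root hair markers 1, EXPA7, was lower (-2.09, list median -2.28), a call lost in 5 of 6 fits without 1 library. The camalexin list had no call (median 1.00), with 3 genes higher at an unadjusted p under 0.05, 1 called higher under the block and none by DESeq2. ELIP1 (2.05, adjusted p = 0.0176) was higher in pif134 than in pifq, but not without pif134 B, pifq A or pifq B.

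Against pif345, whose label keeps PIF1 and whose PIF1 RNA ranged from 22.5 to 38.5 CPM, 835 genes (4.47%) passed, 344 higher (1.84%) and 491 lower (2.63%), with a median of 0.02. The block gave 1517 calls and the block within sets 2819, and without pif134 B, pif345 A or pif345 C there were 472, 430 and 373. With total counts in place of TMM the split was 136 higher and 927 lower. Both triple mutants share pif3 and pif4 by label. PIF5 (6.14 ± 0.55, adjusted p = 2.52e-08) and PIF4 (1.41) were higher in pif134, PIF4 not without pif134 A, pif345 A or pif345 C. Of 23 tested seed genes 18 were lower in pif134 and none higher (median -4.29). SESA5 had 0.631, 7.25 and 1.21 CPM in pif134 and 189.7, 223 and 441 CPM in pif345 (-6.53 ± 1.02, adjusted p = 0.00013; -8.25 to -6.05 with single libraries left out). CRC (-4.60), EM6 (-4.43) and M17 (-5.41) were lower likewise, while SESA2 and SESA4 lost their calls in all 6 fits that left out 1 library and CRA1 without pif134 A. Germination regulators were lower in 4 of 11 tested genes (median -0.97), among them GASA2 (-6.50) and GASA3 (-6.16).

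Root hair markers were lower than in pif345 in 6 of 9 tested genes (median -3.36), of which EXPA7 (-3.84 ± 0.45, adjusted p = 2.69e-06) and EXPA18 (-3.36) kept their calls in all 6 fits without 1 library, whereas LRX1, PRP1, PRP3 and RSL2 lost theirs in 4 or 5 of these. Antenna and photosystem genes had no call by edgeR (medians 0.44 and 0.40) and none by DESeq2, with 1 antenna and 3 photosystem genes higher at an unadjusted p under 0.05, and the block called 1 antenna and 1 photosystem gene higher. The summed antenna level was higher in every pif134 library than in every pif345 library. Camalexin and mitochondrial stress genes were higher in 3 of 10 (median 1.64), namely UPOX, CYP79B3 and AOX1A, and none of these 3 calls held in all fits without 1 library. PIL1 was lower in pif134 than in pif345 (-1.38 ± 0.26, adjusted p = 0.000965), and PIL2 too (-1.62), though not without pif134 B.

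PGL2 and QQS stood far from both pifq and pif345, without a call against WT. PGL2 (AT3G49360, chr3:18303007-18304466), a sugar-phosphate lactonase of the pentose phosphate pathway, had 32.6, 20.4 and 20.3 CPM in pif134, 0.841, 0.991 and 1.16 CPM in pifq, 1.80, 2.35 and 2.60 CPM in pif345 and 35.5, 21.4 and 22.3 CPM in WT. It was higher in pif134 than in pifq (4.61 ± 0.31, adjusted p = 9.53e-11) and pif345 (3.44 ± 0.28, adjusted p = 5.57e-09), while its difference from WT was -0.11 ± 0.25 (adjusted p = 0.82). QQS (AT3G30720, chr3:12349047-12349933), an orphan gene that affects starch content, had 0.574, 0.24 and 0.687 CPM in pif134, 43.7, 38.6 and 70.3 CPM in pifq, 40.4, 38.6 and 77.7 CPM in pif345 and 1.19, 1.16 and 0.854 CPM in WT. The log2 differences were -6.67 ± 0.43 from pifq (adjusted p = 5.87e-11) and -6.71 ± 0.43 from pif345 (adjusted p = 5.19e-11), whereas the difference from WT, -1.11 ± 0.42, did not pass the test (adjusted p = 0.0727). These comparisons share the pif134 libraries and are given side by side only.

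AIR1 (AT4G12550, chr4:7439115-7439805), an auxin-induced gene of root cultures, had 15.3, 9.45 and 7.55 CPM in pif134, 86.4, 319 and 192 CPM in pifq, 474, 293 and 474 CPM in pif345 and 312, 304 and 249 CPM in WT. Of these 4 genotypes pif134 was the low one, with log2 differences of -4.21 ± 0.37 from pifq (adjusted p = 3.98e-08), -5.27 ± 0.39 from pif345 (adjusted p = 1.05e-09) and -4.75 ± 0.38 from WT (adjusted p = 4.38e-09). Its neighbour AT4G12545 (chr4:7434199-7434858), a lipid-transfer-type protein, had 11.4, 3.65 and 3.12 CPM in pif134, 42.7, 109.8 and 97.0 CPM in pifq and 180.1, 189.9 and 185 CPM in WT. Its log2 difference from pifq was -3.78 ± 0.40 (adjusted p = 1.23e-06; -4.60 to -3.45 with single libraries left out). CYP71B22 (3.85), one of the 3 largest rises against pifq by the same rule, which leaves out the targeted PIFs, failed without pif134 A, pif134 B, pifq B or pifq C.

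Apart from the targeted PIFs, of which PIF5 rose more, the 3 largest rises against pif345 by that rule were PGL2 with AT5G52940 and AT5G09570, a DUF295 gene and a gene of the Cox19 family. AT5G52940 had 8.49, 11.1 and 11.4 CPM in pif134 and 0.539, 1.77 and 0.0711 CPM in pif345 (3.71 ± 0.92, adjusted p = 0.0159), lost without pif345 A or C. AT5G09570 had 24.6, 9.02 and 20.4 CPM in pif134 and 1.65, 2.08 and 0.391 CPM in pif345 (3.71 ± 0.83, adjusted p = 0.00723), lost without pif345 C. AT3G58450, an adenine nucleotide hydrolase-like gene, gave the largest fall, with 0.115, 0.096 and 0 CPM in pif134 and 9.99, 7.88 and 16.6 CPM in pif345 (-7.27 ± 0.94, adjusted p = 1.03e-05).

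**Figure D5:**
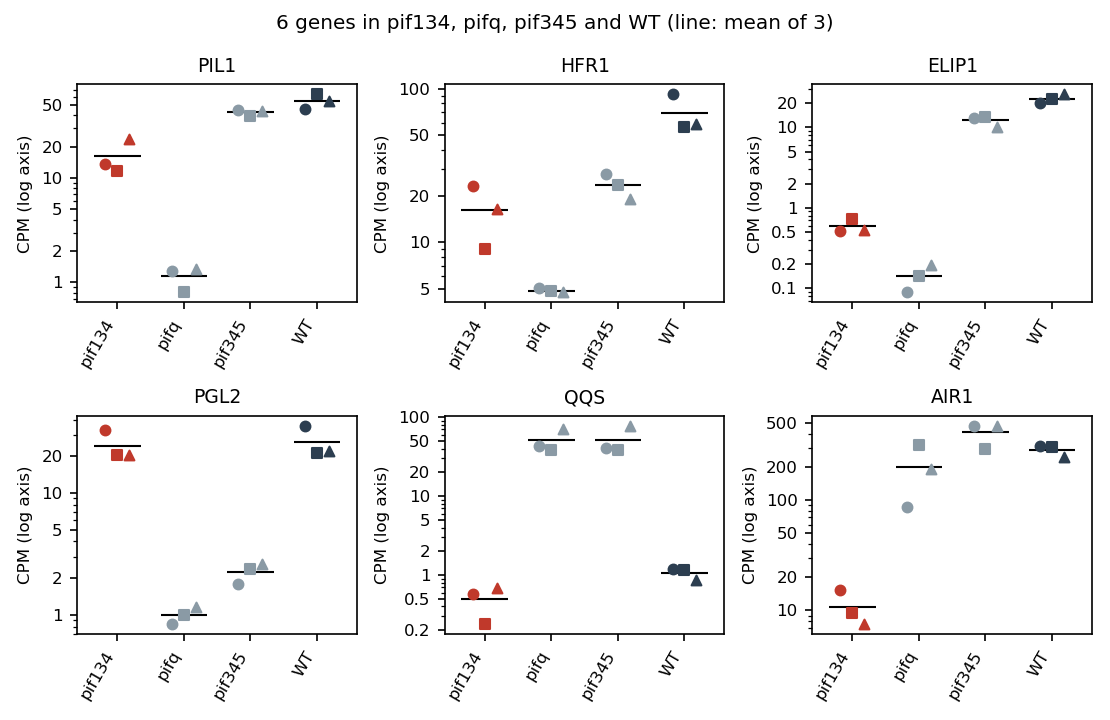
CPM (log axis) of PIL1, HFR1, ELIP1, PGL2, QQS and AIR1 in the 3 libraries each of pif134, pifq, pif345 and WT. PIL1 in pif134 lies between pifq and WT, PGL2 in pif134 overlaps WT, QQS in pif134 lies far below pifq and pif345, and AIR1 is low in pif134 but not in the other 3 genotypes shown.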

How the data were processed

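Counts per locus were deposited by the authors in 1 table for each sample; per the labels' protocols the libraries were directional and made from RNA 3′ ends, and per the submitters' processing notes Bowtie 0.12.7, the TAIR10 genome and edgeR were used. The counting tool, its strand setting and its handling of reads that match several loci are not given in the sources used here. The deposited columns hold raw counts, whole for every named locus. In 3 columns (pif5 C, pif3 B, WT B) the value of a last row that names no gene is not whole, and for that value alone their unit was recorded as estimated counts in the deposited files. The row was at most 0.0015% of a library and was dropped. Of 33322 loci, 32834 matched the RefSeq annotation of TAIR10.1 by locus tag, which gave symbols, coordinates and sequences.

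All 30 libraries (18971915 to 70809112 counts) entered 1 fit in R 4.3.3 with edgeR 4.0.16 and limma 3.58.1: filterByExpr with a minimum count of 10 kept 18680 genes, TMM set the library sizes, and the quasi-likelihood test with 20 residual degrees of freedom was adjusted by Benjamini-Hochberg over all genes of each contrast. A call is an adjusted p under 0.05. CPM use TMM-scaled library sizes, log2 differences are pif134 minus the group named, and their SE is the absolute log2 difference over the square root of F. The p-values rest on the spread between replicates within a group, pooled over all 10 genotypes rather than taken from pif134 and WT alone.

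Replicates share letters. Deviations of pif134 libraries from their group mean correlated with those of the same letter at 0.584, 0.122 and 0.223 in WT, 0.154, 0.395 and 0.522 in pifq and 0.557, 0.253 and 0.323 in pif345, all above 0.1, so the letters were taken to pair the samples; the labels do not say what a letter stands for. Against WT only 1 of the 3 pif134 libraries correlated best with the library of its own letter, against 3 in pifq and in pif345. In the single mutants the lowest same-letter value was under 0.1 (pif1 0.0539, pif3 0.0103, pif4 0.0761, pif5 0.0557), but not in pif145 (0.362) or pif135 (0.357). The fit without the block had been used before for the whole series and was kept as the one reported. Its p-values do not use the pairing. The letter as a block was an alternative. The others were RLE size factors, total counts alone, DESeq2 1.42.0, no filter, the 2 groups alone, a block within sets and leaving out each library. Leaving out library A of both groups was added after seeing the data. On simulated counts for pif134 against WT the test recovered 32% of 100 genes changed by 1 on the log2 scale. It recovered 93% of 100 changed by 2, with 5 false calls among 18495 tested of 18680 genes. The simulation drew changed genes from those with a mean above 1 CPM and held no letter effect or other difference between genotypes. These rates therefore do not cover genes near the floor or the letter effects of the real libraries.

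The members and the gene lists were chosen with earlier results of these data known. Some genes are shared between lists, such as IAA29 (shade and auxin) and RGL2 (germination and gibberellin), so the list counts are not independent. Genes named by rule were the 4 targeted PIFs, the 12 largest rises and falls against WT among other calls that reached a mean of 5 CPM without overlap, up to 4 called members of each list by size of change, and the 3 largest rises and falls against pifq and pif345 by that rule; other genes were named after their values were seen.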

Additional observations from a re-analysis of the deposited data

How the results depend on the processing

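Under the replicate letter block the numbers of calls were 4708 against WT, 423 against pifq and 1517 against pif345, and with the block within sets they were 6069, 626 and 2819. PIF1 passed against WT under the block (1.36, adjusted p = 0.0328), the block within sets (1.34, adjusted p = 0.0221) and in the 2 groups alone (1.33, adjusted p = 0.00628), and not in the other fits. Beyond PIF1 and the counts given beside each list, the block ended none of the calls of the genes named by rule against WT. With the 2 groups alone 2220 genes passed against WT and 91 against pifq. Leaving out 1 library gave 2008 to 3579 calls against WT, 1829 to 2892 of at least 2-fold, 131 to 296 against pifq, 373 to 837 against pif345, and log2 differences of PIF1 from WT of 1.198 to 1.55. Among genes named by rule, the sign against WT turned for GH3.3 without pif134 A (range -0.19 to 2.17 over fits without 1 library), for the root tip gene PLT1 without pif134 B (-0.78 to 0.071), and for PGL2 without pif134 B (0.0075), pif134 C (0.013) or WT A (-0.34 to 0.16 over these fits); PLT1 and PGL2 were not called against WT. With total counts alone the split was 1368 higher and 1980 lower against WT and 136 higher and 927 lower against pif345. DESeq2 (3588 calls), RLE size factors (3173), no filter (3012) and library A of both groups left out (2414, chosen after seeing the data) stayed within 1.5 times the 3159 reported against WT. The causes of these changes were not tested. Counts at a floor of few reads, as for PIF7 and the root hair genes, limit how closely a fold change is known.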

Other observations

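Some larger gene families, grouped by the product names of the RefSeq annotation, also moved between the libraries labelled pif134 and WT. These families were chosen after the values were seen and are given as counts without a test, beside a background of 9.12% of all tested genes higher and 7.79% lower. Berberine-type oxidases rose in 12 of 20 tested genes and fell in none (median log2 difference 2.02). Tau-class glutathione transferases, which conjugate reactive compounds, rose in 13 of 26 and fell in 3 (median 1.13). Cysteine-rich receptor-like kinases rose in 8 of 19 and fell in 1, WRKY factors rose in 12 of 51 and fell in 3, and NBS-LRR resistance genes rose in 11 of 59 and fell in 2. Cytochrome P450 genes went both ways, with 32 higher and 21 lower of 136, as did peroxidases, with 19 higher and 11 lower of 51.

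Lower in the libraries labelled pif134 were 12 of 31 MtN21-like transporters (none higher), 12 of 36 arabinogalactan proteins (1 higher) and 19 of 60 DC1-type cysteine- and histidine-rich proteins (3 higher). So were 17 of 40 genes of the pectin methylesterase inhibitor superfamily (6 higher). Expansins were higher in 4 and lower in 6 of 23. Members of these families share sequence, so the counting of reads among close copies may be uncertain.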
